A study of Mus musculus with 4 samples.

Results

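The 8 genes of the suppressor of cytokine signalling (SOCS) family, Cish and Socs1 to Socs7, were measured in 4 RNA-seq libraries of mouse primary cells. The members were found by gene symbol, through the gene identifiers in the count tables, and all 8 were present among 50600 genes. The cells were labelled regulatory T cell and came from the strain C57BL/6NJ. The labels gave biological replicates 1 to 4 with 4 biosamples and a single donor record, no sex, and an unknown age and stage. The assay was given as total RNA-seq, but the cited protocols cover poly(A) libraries and the differentiation of CD4 T cells. Names inside the tables carried the words activated and 00h, and no treatment or second group was analysed here. Levels and ratios were therefore compared within libraries. The ratio p-values reflect only whether the 4 libraries share a sign, and the variation p-values how far they spread, which can be technical.

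SOCS proteins are the classical feedback brake of the JAK-STAT pathway. A cytokine receptor activates Janus kinases (JAKs), these phosphorylate STAT transcription factors, and STATs induce SOCS genes among others. Each SOCS protein has an SH2 domain, which binds phosphotyrosine on a receptor or kinase, and a SOCS box, which recruits elongins and a cullin to form a ubiquitin ligase. Cish and Socs1 to Socs3 have short amino-terminal parts and are the members best known as cytokine-induced inhibitors. Socs4 to Socs7 have long amino-terminal parts and are better known for roles at receptor tyrosine kinases. In regulatory T cells, Socs1 is known as a protector of Foxp3 expression and suppressive function.

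The 2 members with the highest levels here, Socs3 and Socs1, and the STAT5 target Cish are shown first by the stretch at their transcription start, because STAT and interferon control of these genes is known to act near the start. Windows of 300 bases, with 250 before and 50 after the start, were in the RefSeq table (build GRCm38.p6) for 4 of the 8 members, Cish, Socs1, Socs3 and Socs4. The motif TTCNNNGAA, the core of the gamma-activated sequence that STAT dimers bind, was searched on both strands and is its own reverse complement. It had 2 matches in Cish, 1 in Socs3 and 0 in Socs1 and Socs4. A match occurred in 2726 of 32851 windows of the table (8.30%), and 2 or more matches in 150 (0.457%). The motif GAAANNGAAA, of the kind bound by interferon regulatory factors, was searched on both strands too. It had 2 overlapping matches in Socs1 and 0 in the other 3 windows, against a match in 1131 windows (3.44%) and 2 or more in 74 (0.225%) of the table. Capitals below mark the matches, and positions count from 1 at the RefSeq start, with the base before it at -1. The 250 bases before the Socs1 start (chr16:10785537-10785786, minus strand) hold the matches at -83 and -77.
Socs1: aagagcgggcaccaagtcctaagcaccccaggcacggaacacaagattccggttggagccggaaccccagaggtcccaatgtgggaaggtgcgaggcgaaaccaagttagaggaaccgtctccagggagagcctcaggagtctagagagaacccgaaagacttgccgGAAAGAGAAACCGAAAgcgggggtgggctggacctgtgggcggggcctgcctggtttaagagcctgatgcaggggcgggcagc
The 250 bases before the RefSeq start of Socs3 (chr11:117969367-117969616, minus strand) hold the match at -154. In GENCODE M21 the principal transcript Socs3-201 starts further downstream, outside the window, so the bases just before that start were not searched. Of the window, 77 bases are exon of a non-coding Socs3 transcript.
Socs3: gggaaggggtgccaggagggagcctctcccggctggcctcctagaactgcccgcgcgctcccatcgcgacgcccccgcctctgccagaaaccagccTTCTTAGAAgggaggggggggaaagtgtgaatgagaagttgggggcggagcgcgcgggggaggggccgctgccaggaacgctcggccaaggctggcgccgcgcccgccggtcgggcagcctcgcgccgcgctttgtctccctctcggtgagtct
For Cish only the 30 bases around the RefSeq start are shown (chr9:107296654-107296683, plus strand), with matches at 1 and 12. GENCODE M21 starts the principal transcript Cish-201 further upstream, so that this whole window lies in its first exon.
Cish: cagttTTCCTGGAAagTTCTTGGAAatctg
These matches describe letters in the windows, and no binding was measured in these libraries.

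All members but Socs2 reached the detection level set here. A gene was called detected at 1 TPM (an abundance scaled by counted exon length and library total) or more in all 4 libraries. Of the 8 members 7 (all but Socs2) were detected, where 9948 of 21764 protein-coding genes were (45.7%). The TPM order was Socs3, Socs1, Socs4, Socs7, Cish, Socs5, Socs6 and Socs2, and it was the same in each of the 4 libraries. In bulk RNA, fewer expressing cells and less RNA per expressing cell cannot be told apart. Replicates 1 and 3 were shallow, with 25573253 and 23000465 gene counts, and replicates 2 and 4 deep, with 62090744 and 61943411. Levels are given below as TPM with mean ± SD over n = 4 libraries.

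**Figure D1:**
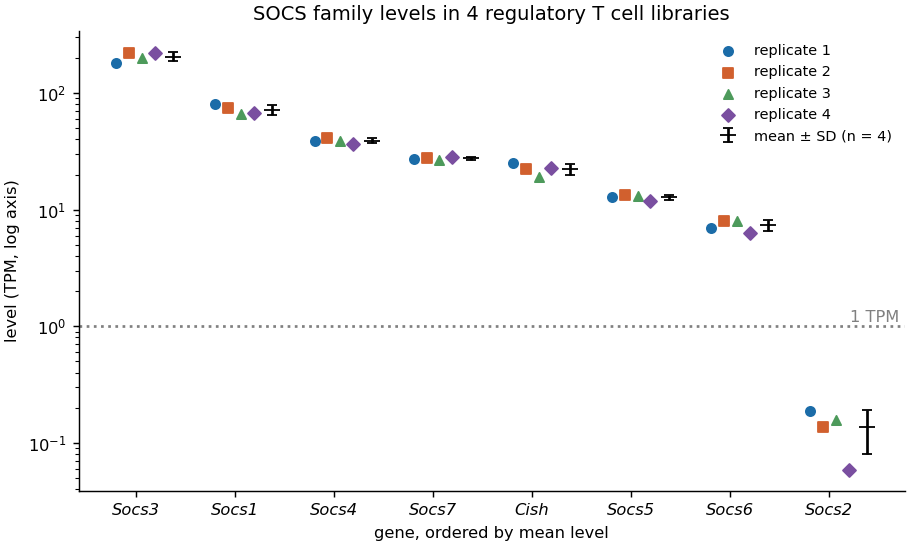
Level of each SOCS family gene in TPM (log axis), with 1 symbol per library and the mean ± SD (n = 4) in black. Socs3 lay between 181 and 222 TPM and Socs2 below the dotted detection line at 1 TPM, and no range overlapped that of a neighbour in the order.

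Socs3 was the highest member. The protein binds both a JAK and a receptor chain such as gp130, and is the main brake on IL-6 type signals. Its locus is chr11:117966079-117970047 on the minus strand (mm10), with its whole coding sequence in 1 exon. It was at 181, 219, 200 and 222 TPM in replicates 1 to 4 (206 ± 18.9, n = 4), on 3807 to 11504 counts. Replicates 2 and 4, the deep libraries, were the highest, and replicate 1 the lowest, with 1.22-fold between the extremes. It ranked 753 among 21764 protein-coding genes by mean TPM.

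Socs1 came second. It inhibits JAKs directly through a kinase inhibitory region that it shares with Socs3, and restrains interferon and IL-2 family signals. The gene lies at chr16:10782240-10785536 on the minus strand and codes in 1 exon. Its TPM was 80.8, 73.8, 65.6 and 68.1 in replicates 1 to 4 (72.1 ± 6.76, n = 4), on 534 to 1578 counts. Replicate 1 was the highest, and the values of shallow and deep libraries interleaved. The counted model covers 1220 of the 2908 bases of the principal transcript in the later annotation, so that its count comes from a short stretch. Within libraries Socs3 exceeded Socs1 by 1.51 ± 0.24 in log2 TPM (2.85-fold, 4 of 4 libraries, exact two-sided sign-flip test p = 0.13, adjusted p = 0.13 over 7 ratios). This p, 2 of 16 sign patterns, is the smallest that the test can give with 4 libraries, so no ratio could pass 0.05.

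Socs1 is also a well-known target of miR-155, a microRNA that Foxp3 promotes in regulatory T cells. The mature miR-155-5p is shown with its seed, bases 2 to 8, in capitals, above the single seed match of the Socs1 3′ UTR.
miR-155-5p: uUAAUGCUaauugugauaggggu
Socs1 site: ccgctgtgccgcAGCATTAagtgggggcgc
The capitals in the site are the complement of the seed, AGCATTA, at base 20 of the 3′ UTR (chr16:10784196-10784225, minus strand, inside the counted exons). Socs6 had 1 such match and the other 6 members 0. The 3′ UTR had 1993 bases in Socs1 and 4019 in Socs6, and 1087 to 5184 over all members. Of 16282 annotated 3′ UTRs 1250 held a match (7.68%), with a median UTR length of 841 bases. Every member was longer than that median, so the share is not a like background for the members. The host transcript Mir155hg, named here outside the selection rule, was at 0.576, 0.717, 0.627 and 0.545 TPM in replicates 1 to 4 (0.616 ± 0.0749, n = 4), on 6 to 18 counts. It was below the detection line in every library, and the mature microRNA was not measured by this assay.

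Cish and Socs2 are the members most closely tied to STAT5, the factor downstream of IL-2. Cish competes for receptor sites and also restrains T cell receptor signalling. It lies at chr9:107296026-107302784 on the plus strand and codes in 3 exons. It was at 25.3, 22.3, 19.2 and 22.7 TPM in replicates 1 to 4 (22.4 ± 2.50, n = 4), on 821 to 2616 counts. Replicates 1 and 3, both shallow, were the highest and the lowest. Its exons overlap those of 2 genes on the opposite strand. Gm17040 shares 261 bases (4.07% of the Cish exon length) and had 0 counts, and Gm17041 shares 479 bases (7.46%) and had 1 count in each of replicates 2 and 4.

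Socs2, the member known for limiting growth hormone signals, was below the detection line. Its gene spans chr10:95385362-95417180 on the minus strand, with 14 annotated transcripts. Its counts were 13, 23, 10 and 10 in replicates 1 to 4. These gave 0.188 TPM in replicate 1 (exact Poisson 95% interval 0.09999 to 0.321), 0.138 in replicate 2 (0.0873 to 0.207), 0.157 in replicate 3 (0.0754 to 0.289) and 0.0586 in replicate 4 (0.0281 to 0.108). The intervals, which cover counting error only, of replicates 1, 2 and 3 overlapped that of replicate 4. Cish exceeded Socs2 by 6.60 ± 0.40 in log2(TPM + 0.1), or 97.3-fold (4 of 4 libraries, exact sign-flip p = 0.13). That size depends on the pseudocount, and with 1 TPM in place of 0.1 the difference was 4.36. The 2 STAT5-linked members thus lay at places 5 and 8 of the family.

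Socs4 was the highest of the long members. It is known for promoting turnover of the epidermal growth factor receptor, as is its paralog Socs5, which also interferes with IL-4 receptor signalling. Socs4 (chr14:47276931-47296102, plus strand) was at 38.6, 41.5, 39.1 and 36.7 TPM in replicates 1 to 4 (39.0 ± 1.95, n = 4). Socs5 (chr17:87107679-87137839, plus strand) was at 12.9, 13.3, 13.03 and 11.9 TPM (12.8 ± 0.609, n = 4). For both genes the highest library was replicate 2 and the lowest replicate 4. Their ratio was nearly constant, at 1.60 ± 0.03 in log2 (3.03-fold, 4 of 4 libraries, exact sign-flip p = 0.13).

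Socs6 and Socs7, which bind insulin receptor substrates among other partners, showed the opposite order of size. Socs7 (chr11:97362551-97398542, plus strand), with coding sequence in 9 exons, was at 27.2, 27.7, 26.5 and 28.5 TPM in replicates 1 to 4 (27.5 ± 0.814, n = 4). Socs6 (chr18:88665224-88927481, minus strand) was at 6.997, 7.98, 7.98 and 6.35 TPM (7.33 ± 0.798, n = 4). Socs7 had the smallest coefficient of variation of the family, 2.96%, where counting alone gives 2.25%. Socs6 lay below Socs7 by a log2 ratio of -1.90 ± 0.19 (3.73-fold, 4 of 4 libraries, exact sign-flip p = 0.13).

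By TPM, Socs3 alone made up about as much of the family as all other members together. By counts, with no length correction, its share was 42.1% ± 2.65. The summed TPM of the 8 members was 373, 406, 372 and 396 in replicates 1 to 4 (387 ± 16.9, n = 4). The share of Socs3 was 48.6%, 54.0%, 53.9% and 56.0% in those libraries (53.1% ± 3.19), so that it was below 50% only in replicate 1. Socs1 followed with 18.7% ± 2.03 and Socs4 with 10.1% ± 0.559. Cish and Socs1 to Socs3 together held 77.6% ± 0.996, and exceeded Socs4 to Socs7 by 1.79 ± 0.08 in log2 (3.46-fold, 4 of 4 libraries, exact sign-flip p = 0.13). Socs3 exceeded Cish by 3.20 ± 0.24 in log2 (9.17-fold) and Socs1 exceeded Cish by 1.69 ± 0.08 (3.22-fold), again in 4 of 4 libraries (exact sign-flip p = 0.13 for each). The sizes of these differences depended on the length used. An alternative added after the files were seen used the bases of the principal transcript that lie inside the counted exons. It gave 2.21 for Socs3 over Cish and 0.52 for Socs1 over Cish in log2. Socs1 kept its 1220 counted bases, of 2908 in its principal transcript, so only the Cish length changed in that ratio. With no length correction (CPM, counts scaled by the library total alone) the log2 ratio of Cish and Socs1 to Socs3 over Socs4 to Socs7 was 0.50.

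The closest neighbours were Socs7 and Cish, 1.23-fold apart, with the lowest Socs7 value at 26.5 TPM and the highest Cish value at 25.3. This part of the order depended on the gene model. The counted exons of Cish add up to 6419 bases, while its principal transcript Cish-201 has 2850. With the length of the principal transcript inside the counted exons, Cish was at 50.4 ± 5.64 TPM and moved from place 5 to place 3. It was then above Socs4 (39.0) and Socs7 (28.5), while the length of Socs1 was unchanged. Socs2 was at 0.580 ± 0.237 TPM on this scale and stayed at place 8. CPM put Socs4, Socs7 and Cish above Socs1, and the log2 ratio of Socs1 to Cish was then -0.70.

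**Figure D2:**
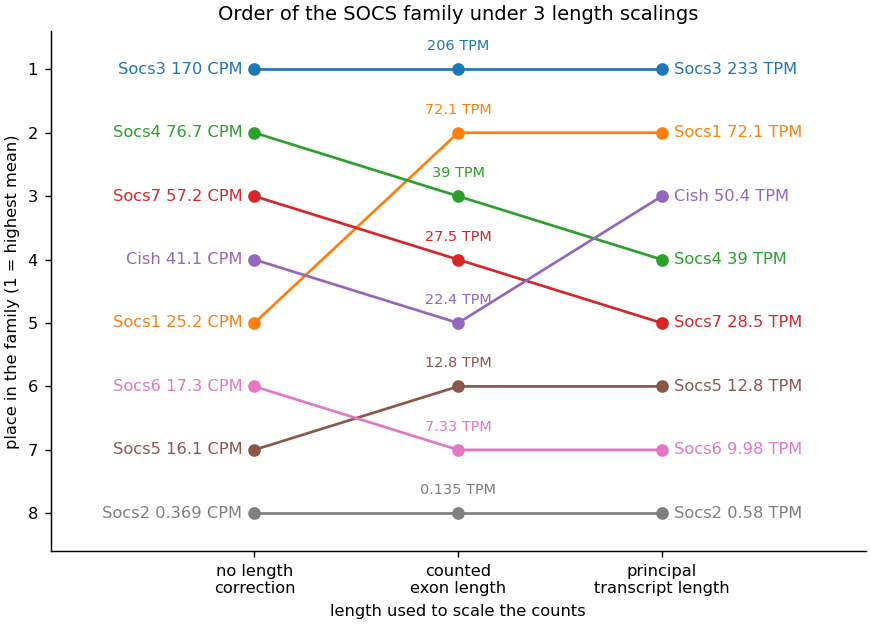
Place of each SOCS family gene by its mean over 4 libraries (vertical axis, 1 is highest) under 3 ways to scale counts by length (horizontal axis), with the mean values printed at the points. Socs3 stayed first and Socs2 last, while Socs1 moved between places 5 and 2 and Cish between 5 and 3. The principal transcript was measured inside the counted exons only, which left the length of Socs1 unchanged.

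No member was called variable between the libraries. The test asked whether a gene's counts spread more over the 4 libraries than the trend of all genes at that level (edgeR, residual deviance of an intercept-only fit, Benjamini-Hochberg adjusted p under 0.05). It called 0 of the 7 members tested, where it called 142 of 12554 genes (1.13%), and Socs2 was below the filter on low counts. By edgeR 0 members had an unadjusted p under 0.05. Cish came closest with an unadjusted p of 0.0727, followed by Socs3 with 0.144, and the edgeR adjusted p was 1.00 for all 7. The same kind of deviance test with DESeq2 size factors and dispersion trend, over 22113 genes without the filter, also called 0 members. Its unadjusted p for Socs3 was 0.0416. The unadjusted edgeR p of Cish was 0.0153 without replicate 2 and 0.0444 without replicate 4, with no call after adjustment.

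The SD of log2 CPM over the libraries was 0.05 for Socs4, Socs5 and Socs7. It was 0.12 for Socs1, 0.14 for Socs3 and Socs6 and 0.16 for Cish, and the median tested gene had 0.11. All long members but Socs6 therefore lay below the median of all tested genes and the other 4 tested members above it. The difference between these sets was not tested.

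**Figure D3:**
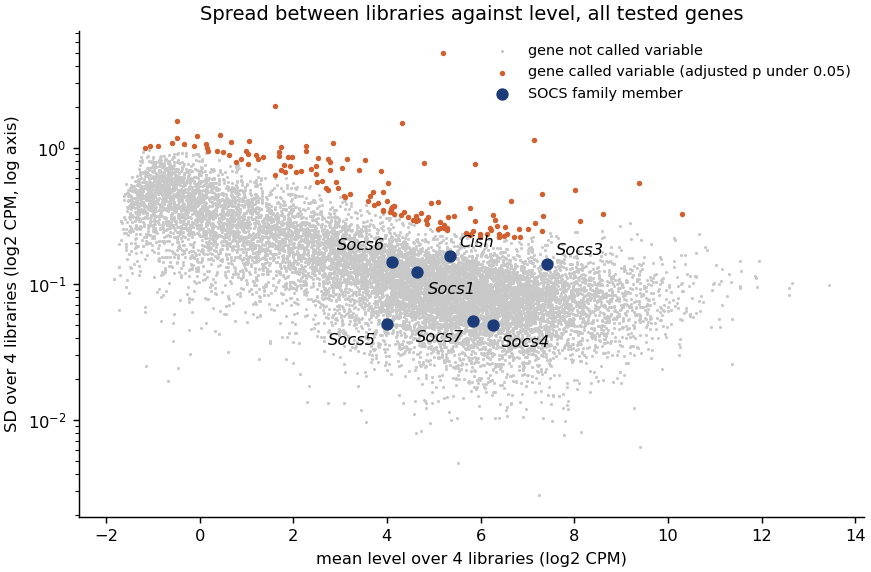
SD over the 4 libraries (log2 CPM, log axis) against the mean level (log2 CPM) for 12554 tested genes, with 142 genes called variable in orange and 7 SOCS family members in blue. The members lie inside the grey cloud, between 0.05 (Socs4, Socs5, Socs7) and 0.16 (Cish).

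The parts of the pathway that SOCS proteins act on and with were present. All 4 JAKs were detected, with Jak1, the kinase that most of these receptors use, at 644 ± 27.9 TPM (n = 4). Jak3, which is bound to the common gamma chain, was at 188 ± 7.99, Tyk2 at 99.2 ± 5.24 and Jak2 at 98.1 ± 5.46. The 6 STATs given here were detected too. Stat6, the IL-4 factor, led with 342 ± 17.8 TPM and Stat5b followed with 207 ± 10.4. Stat3 was at 128 ± 9.26, Stat2 at 59.6 ± 5.17, Stat4 at 54.6 ± 5.15 and Stat5a at 53.0 ± 2.37. Among these STATs, Socs3 (206) thus lay between Stat5b and Stat3 in mean TPM, close to Stat5b, and Socs1 between Stat3 and Stat2. None of these JAKs and STATs was called variable by edgeR.

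The ligase parts that the SOCS box recruits were detected in 10 of 10 cases, with a median of 54.2 ± 1.34 TPM. Elob, the elongin that the box contacts with Eloc, was highest at 366 ± 21.3, followed by the cullin modifier Nedd8 (305 ± 11.9) and the Nedd8-conjugating enzyme Ube2m (98.6 ± 3.30). Cul5, the cullin that SOCS boxes prefer, was second lowest at 19.9 ± 1.55, above Ube2f at 11.6 ± 0.842. Socs3 was therefore more abundant per length than Cul5 in each of the 4 libraries. Among 26 other SOCS box genes 12 were detected, and 9 had no count in any library, which allows at most 0.0999 to 0.395 TPM depending on gene length and the shallowest library (a floor of 3 counts). The highest were Spsb3 (75.7 ± 6.39), Asb13 (73.0 ± 3.25) and Wsb1 (57.0 ± 3.61), all below Socs3.

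**Figure D4:**
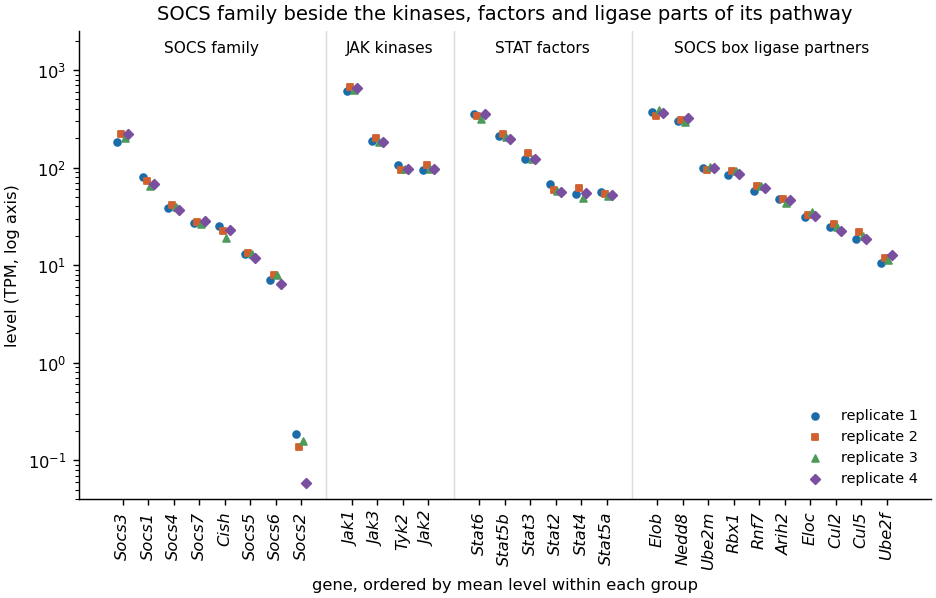
Level in TPM (log axis) of the 8 SOCS genes, 4 JAK kinases, 6 STAT factors and 10 SOCS box ligase partners, with 1 symbol per library. All genes shown except Socs2 are above 1 TPM, and Socs3 (206) lies within the range of the STATs shown (53.0 to 342).

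Receptors for several SOCS-regulated cytokines were abundant, while the ligands mostly were not. Of 30 receptor chains 18 were detected, with Il7r (880 ± 137 TPM), Il2rg (641 ± 34.3) and Il21r (429 ± 19.3) highest. Ghr, the growth hormone receptor that Socs2 restrains, and Osmr had no count in any library. The IL-2 receptor alpha chain Il2ra was called variable by edgeR, at 6.22, 3.63, 9.13 and 3.11 TPM in replicates 1 to 4. It was higher in both shallow libraries, replicates 1 and 3, than in both deep ones, an order that Cish did not share. Of 20 ligands only Osm, itself a STAT5 target, was detected (52.4 ± 1.59 TPM), the next being Lif (0.692 ± 0.204) and Il2 (0.442 ± 0.330). Another 8 ligands, Il27 and Tslp among them, had no count, which allows at most 0.0794 to 0.715 TPM depending on the gene.

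Among 22 reported binding partners of SOCS proteins 12 were detected. The highest were Lck (1499 ± 37.0 TPM), the T cell receptor kinase reported to bind Socs6, Jak1 and Il4ra (324 ± 12.3). The epidermal growth factor receptor gene Egfr, a partner of Socs4 and Socs5, had 1 count over the 4 libraries. Other brakes on cytokine signals were detected in 14 of 14 cases with a median of 65.5 ± 2.05 TPM. Ptpn6, a phosphatase, was highest (540 ± 52.9), then the phosphatase Ptprc (436 ± 29.03) and Ptpn1 (180 ± 4.87), and the lowest were Pias3 (19.4 ± 0.874) and Pias2 (37.6 ± 2.22). Socs3 would stand between Ptprc and Ptpn1 in that list.

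The other targets of the STATs that induce SOCS genes differed in level by pathway. STAT5 targets were detected in 12 of 14 cases, with a median of 72.9 ± 3.94 TPM, led by the survival gene Mcl1 (526 ± 20.1) and the cyclin gene Ccnd2 (247 ± 11.7), then the kinase gene Pim1 (136 ± 7.06). The cytotoxic gene Gzmb was lowest (0.485 ± 0.180). Of 11 STAT3 targets 6 were detected, with a median of 1.90 ± 0.208 TPM, led by Pim1, Batf (104 ± 14.4) and Bcl3 (50.3 ± 4.00), with Il17a at no count. Socs3 exceeded each of these 11 genes in mean TPM. For reference, the median protein-coding gene was at 0.379 TPM and the median detected one at 33.3.

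Of 15 interferon-inducible genes tested 8 were called variable between the libraries, and Socs1 was not called; the difference between them was not tested. Of 16 interferon targets 15 were detected, led by Irf1 (236 ± 15.9 TPM), Bst2 (201 ± 33.0) and Irf7 (121 ± 21.3). The 8 that edgeR called were Irf7, Isg15, Ifit1, Ifit3, Mx1, Usp18, Bst2 and Xaf1, and in all 8 both shallow libraries lay above both deep ones. The other 7 tested, Irf1 among them, were not called. Gbp2, one of these and named after its values were seen, was highest in the deep replicate 2, at 97.1, 109, 88.8 and 87.0 TPM in replicates 1 to 4. Ifit3 was at 44.2, 24.8, 41.8 and 16.2 TPM in replicates 1 to 4, and Usp18, a brake on the type I interferon receptor, at 56.8, 42.2, 45.4 and 34.7. Socs1 ran from 65.6 (replicate 3) to 80.8 (replicate 1), with a mean of 73.2 TPM in the shallow and 71.0 in the deep libraries. Whether depth has a part in these values was not tested.

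**Figure D5:**
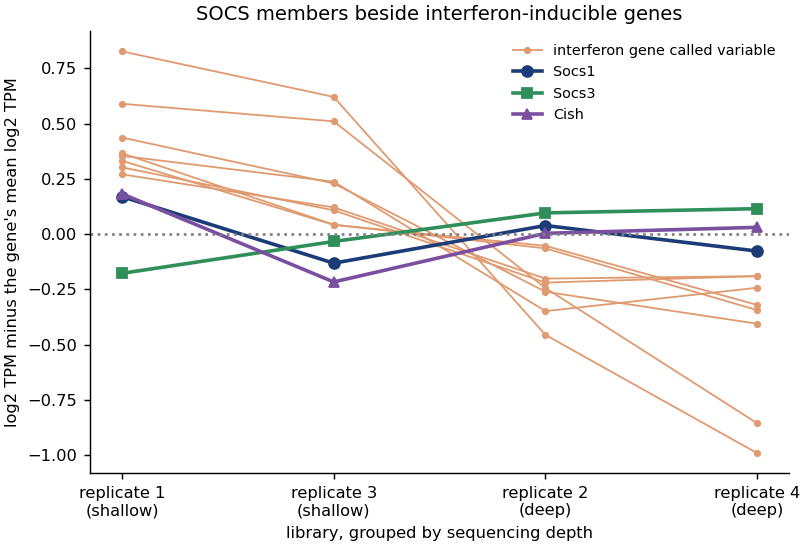
Log2 TPM of each gene minus its mean over the 4 libraries (vertical axis), by library with the shallow replicates 1 and 3 left and the deep replicates 2 and 4 right. The 8 interferon genes called variable (orange) are above 0 left and below 0 right, while Socs1 and Cish are highest in replicate 1 and lowest in replicate 3 and Socs3 is highest in replicate 4.

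The list of early response genes, which receptor stimulation induces as it does several SOCS genes, also held the heat shock genes Hspa1a and Hspa1b. Of its 15 genes 12 were detected, led by Btg2 (359 ± 16.6 TPM), Ier2 (286 ± 17.5) and Junb (276 ± 38.1). Hspa1a and Hspa1b were the only genes of the list called variable by edgeR. Hspa1b was at 45.0, 37.0, 5.08 and 45.6 TPM in replicates 1 to 4. Replicate 3, where it was low, also held the lowest Cish and Socs1 values, but not the lowest Socs3 value. Whether these go together was not tested.

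By level, the genes most like Socs3 among 169 pathway genes were Stat5b and Jak3, with root mean square differences of 0.14 and 0.17 in log2(TPM + 0.1) over the 4 libraries. For Socs1 they were Asb13 (0.07) and the adaptor Sh2b3 (0.13), and for Socs4 they were Pias2 (0.07) and Il2rb (0.11).

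The labelled cell type was checked against its markers. All 6 T cell markers were detected. Of 8 regulatory T cell markers 7 were, at a median of 6.53 ± 1.44 TPM. Foxp3 was at 8.28 ± 0.867, Il2ra at 5.52 ± 2.76, Ctla4 at 7.77 ± 0.959, Ikzf4 at 9.22 ± 1.18, Ikzf2 at 1.34 ± 0.194, Nrp1 at 1.29 ± 0.173, Lrrc32 at 0.355 ± 0.131 and Tnfrsf18 at 107 ± 3.80. The 6 naive T cell markers had a median of 688 ± 33.2 TPM, so that the defining marker Foxp3 was low beside them. Socs1, Socs3, Socs4, Socs5, Socs7 and Cish each had a higher mean than Foxp3. All 6 B cell markers were called variable, with summed TPM of 101, 61.7, 61.8 and 22.1 in replicates 1 to 4. Socs3 was lowest in replicate 1 and highest in replicate 4, the reverse of these sums, which were nearly equal in replicates 2 and 3. Socs1 and Cish were, like the sums, highest in replicate 1 but lowest in replicate 3. The part of B cell RNA in the member values was not tested. Of the other marker lists 1 of 2 CD8, 2 of 5 macrophage, 0 of 4 dendritic, 1 of 3 natural killer, 1 of 4 granulocyte and 0 of 2 red cell genes were detected, with Elane and Mpo at no count. Among these genes Cd8b1 (40.0 ± 2.55 TPM) and the macrophage list gene Cd68 (11.7 ± 1.05) had higher means than Foxp3. Cd8a was at 0.794 ± 0.288 TPM.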

How the data were processed

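Total gene counts of 4 libraries were analysed. Per the file headers, the authors deposited raw fragment counts per gene, made with featureCounts 1.4.6-p4 on exons of GENCODE M13 (mm10), for pairs with both ends aligned and reverse-stranded counting (setting 2). Fragments with several alignments or over several genes were left out, per the file headers. The exon length per gene, a deposited column, came from the same tables. The aligner settings are not given in the sources used here. In Cish, Socs2 and Socs6, 15.5%, 12.7% and 12.2% of sampled 50-base words also occur, on either strand, in transcripts of other genes, so counts there may be low. For Cish these can include words shared with the opposite-strand genes Gm17040 and Gm17041 at the same locus, which need not lower its counts.

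From these, TPM and CPM were computed, with symbols and coordinates from GENCODE M21 (same build) for 50376 genes (99.6%). Coordinates are 1-based. Within-library log2 ratios used TPM + 0.1 and an exact two-sided sign-flip test, adjusted over 7 ratios. Variation used edgeR 4.0.16 (R 4.3.3; filterByExpr, TMM, trended dispersion, chi-square on 3 degrees of freedom), tested on simulated data. DESeq2 1.42.0 gave the size factors and dispersion trend for an alternative with the same kind of deviance test. The members and lists were chosen with earlier results of these data known. Named genes are all members, JAKs, STATs and regulatory T cell markers, and the 3 highest, 2 lowest or variable genes of each other list. Not all of these are printed, 1 gene of the rule is not reported here, and a gene outside this rule is one picked with its values in view. No 2 libraries agreed within sampling noise (chi-square per degree of freedom 7.13 to 32.1). Alternatives changed the pseudocount, threshold, scaling, filter, tool and length, and left out each library. Python 3.11.15, numpy 2.4.6, pandas 2.3.3, scipy 1.17.1 and matplotlib 3.10.9 were used.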

Additional observations from a re-analysis of the deposited data

Results flagged for a closer look

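Of 41 values checked for a library that stands apart, 1 did. Stat3, the factor that induces Socs3, was at 142 TPM in replicate 2 and at 123 in each of the others. The gap to the next library took up 0.991 of the whole range of the 4 libraries. Chance flags about 1 in 20 such groups. Stat3 was not called variable by edgeR, and none of the 8 SOCS members had a library that stood apart by this measure.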

How the results depend on the processing

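The 7 ratios kept their direction and 7 of 8 members stayed detected under the alternatives run, except that the log2 ratio of Socs1 to Cish turned to -0.70 without length correction, by the construction of CPM. Sizes moved more with length. In log2, the principal transcript length inside the counted exons changed Socs3 over Cish from 3.20 to 2.21 and Socs1 over Cish from 1.69 to 0.52. In the ratio of Socs1 to Cish it changed the length of Cish only. Socs1 kept its 1220 counted bases, and no other length was tried for it. CPM gave 2.05 for Socs3 over Cish, 2.75 for Socs3 over Socs1 (from 1.51), 2.25 for Socs4 over Socs5 (from 1.60) and 0.50 for the short over the long members (from 1.79). A pseudocount of 1 TPM gave 4.36 for Cish over Socs2 (from 6.60). The share of Socs3 was 42.1% by counts. The count of variable genes, 142, was 88 with no filter on low counts, where more genes were tested, and 60 to 85 when a replicate was left out, where fewer samples were tested, and 0 members were called in all 8 alternatives. The counts were 139 with DESeq2 size factors, 132 with no scaling beyond library size and 104 with the DESeq2 dispersion trend and no filter. Depth limits Socs2 most, with 10 to 23 counts per library. With 4 libraries, no ratio could pass 0.05.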
